A study of Mus musculus with 8 samples.

Results

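Interferon signalling and interferon-induced genes were followed in mouse embryonic stem cells without METTL5, the methyltransferase that places N6-methyladenosine on 18S ribosomal RNA. The set held 9 genes of the 23845 symbols in each table. They were Stat2 and Irf9, which carry the interferon signal to the nucleus, the regulatory factors Irf1 and Irf2, and the induced genes Isg15, Bst2, Ifitm1, Ifitm2 and Ifitm3. The genes were chosen by name with their footprint levels in knockout (KO) and wild-type (WT) cells in view, so those levels are described below without a test. The material was METTL5 KO and WT mESC (pluripotent cells grown in culture) at passages 5 to 10. Each genotype had 2 ribosome-footprint libraries (Ribo-seq, from the monosome fraction of a sucrose gradient) and 2 RNA-seq libraries (total RNA). The labels give no treatment, do not mention feeder cells and do not give a number of KO clones. The names of all 4 KO files carry the same tag, which the labels do not explain.

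Type I interferons signal through the receptor chains IFNAR1 and IFNAR2 and the kinases JAK1 and TYK2. STAT2 and IRF9 then act in the complex ISGF3, which binds interferon-stimulated response elements (ISRE) in the promoters of induced genes. Type II interferon acts on gamma-activated sites (GAS). IRF1 activates and IRF2 restrains many of the same promoters. Pluripotent cells are known to respond weakly to interferon and to express some induced genes, the Ifitm family among them, without it.

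The Ribo-seq libraries held 8401463 to 11487964 expected counts each and the RNA-seq libraries 152195 to 219567. Levels are given in CPM, the counts of a gene scaled to a fixed library total. In footprints, 3 counts corresponded to 0.261 to 0.357 CPM, and in RNA-seq to 13.7 to 19.7 CPM, which covers counting error only. Mettl5, the targeted gene on the minus strand of chromosome 2 (GRCm38, 69871198 to 69885615), had 4.08 and 4.79 footprint CPM in KO and 41.2 and 45.9 CPM in WT, a log2 fold change of -3.27 (SE 0.22, edgeR adjusted p = 0.00131). In RNA-seq Mettl5 had 256 and 317 CPM in KO and 397 and 601 CPM in WT and was not called (log2 fold change -0.88, SE 0.32, edgeR adjusted p = 0.126). All 10 markers fixed for pluripotent cells were footprinted, with summed levels of 7210 to 7401 CPM in KO and 5769 to 7486 CPM in WT. Of these 10 markers 1 was called, Tfcp2l1, which rose to 133 and 102 CPM in KO from 69.3 and 70.1 CPM in WT. Zfp42 was lower in both KO libraries, at 754 and 691 CPM in KO and 1084 and 1096 CPM in WT. Pou5f1 was higher in both, at 894 and 753 CPM in KO and 712 and 636 CPM in WT. Neither Zfp42 nor Pou5f1 was called, and the other markers of this list overlapped. Markers of other cell types also moved between the genotypes. The 16 fibroblast markers summed to 491 and 702 CPM in KO and 217 and 120 CPM in WT (3 of 13 tested rose), with Lum at 0 in all 4 libraries. The 3 that rose were Col3a1, Col5a1 and Tagln. Thy1 and Pdgfra, of the same list, were lower in both KO libraries. Thy1 stood at 14.8 and 16.5 CPM in KO and 20.2 and 25.1 CPM in WT. Pdgfra stood at 4.08 and 3.22 CPM in KO and 7.74 and 9.17 CPM in WT. The 12 blood and immune markers summed to 69.0 and 58.5 CPM in KO and 44.5 and 37.9 CPM in WT (0 of 3 tested called), and Emr1 and Tyrobp were at 0 throughout. The 10 trophoblast markers summed to 316 and 345 CPM in KO and 127 and 120 CPM in WT (2 of 7 tested rose, Krt8 and Krt18). Krt8 (121 and 143 CPM) and Krt18 (141 and 150 CPM) held most of the KO sums. Elf5, of the same list, was lower, at 0 and 0.087 CPM in KO and 0.764 and 0.476 CPM in WT. Cdx2, Eomes, Krt7 and Hand1 were higher in both KO libraries, though not called. Their levels ran from 0.858 to 6.53 CPM in KO and from 0.119 to 2.60 CPM in WT. Tfap2c, Gata3 and Ascl2 overlapped. The 14 endoderm markers summed to 413 and 546 CPM in KO and 922 and 1114 CPM in WT (4 of 11 tested fell), and the 8 endothelial markers to 93.2 and 141 CPM in KO and 139 and 179 CPM in WT (0 of 5 tested called). The part of these markers in the interferon gene values below was not tested. In bulk libraries fewer cells of a type and less RNA per cell cannot be told apart.

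**Figure D1:**
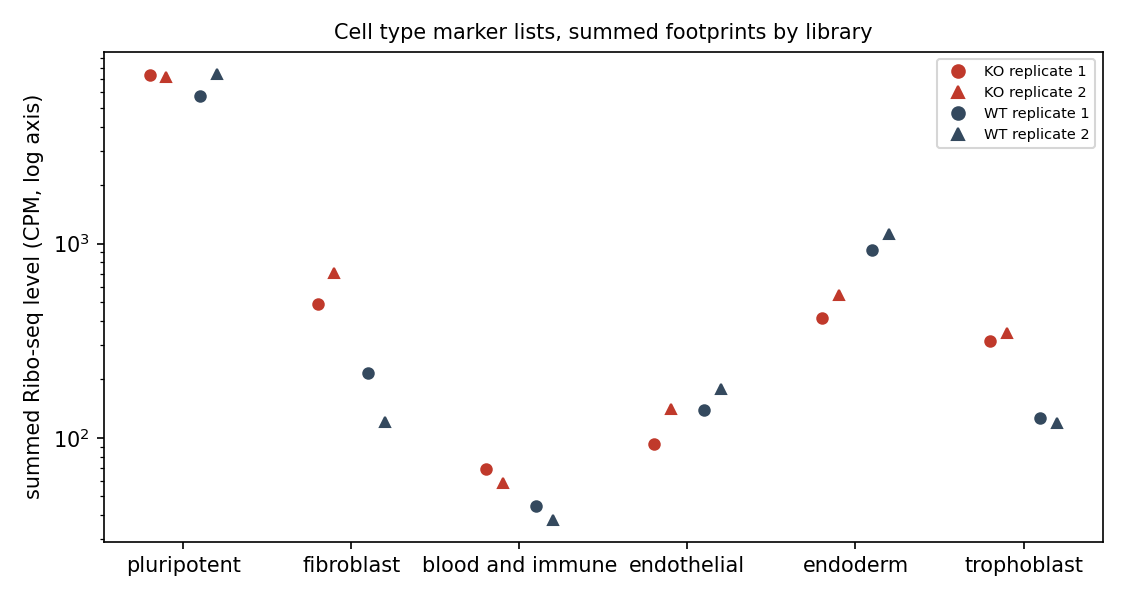
Summed footprint level (CPM, log axis) of each cell type marker list in the KO and WT Ribo-seq libraries, with 1 point per library. Fibroblast, blood and immune, and trophoblast sums lie higher and endoderm sums lower in both KO libraries than in both WT libraries. Pluripotent and endothelial sums overlap.

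All 9 genes passed the filter on low counts in Ribo-seq. Isg15 footprints were about 7-fold and Irf2 footprints about 4-fold higher in KO, and Ifitm1, Ifitm2 and Ifitm3 were 1.36-fold to 1.81-fold higher. In these 5 genes both KO libraries lay above both WT libraries, an order that 24.3% of the 12315 tested genes showed. Stat2 was the 1 gene of the 9 with both KO libraries below both WT libraries, an order shown by 25.5% of tested genes. Irf1, Irf9 and Bst2 overlapped between genotypes. The 9 genes had a median log2 fold change of 0.46, beside 0.01 over all genes tested, and 8 of the 9 were positive, beside 50.8% of all genes. Since the genes were chosen on this comparison, nothing is read from these counts.

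**Figure D2:**
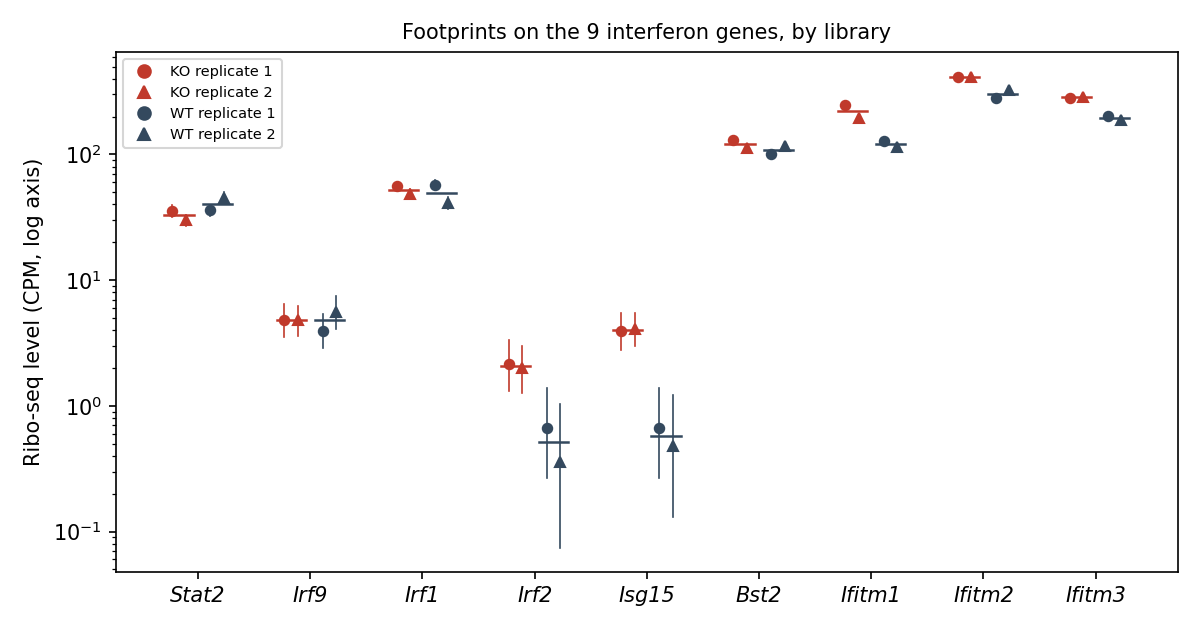
Footprint level (CPM, log axis) of the 9 genes in each KO and WT Ribo-seq library. Points are libraries, vertical lines their exact 95% Poisson counting intervals, and short horizontal lines the group means. Isg15 and Irf2 show the widest distance between KO and WT libraries, at the lowest levels of the set.

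Stat2 encodes the signal transducer that is specific to type I and type III interferon signalling. Its footprint level was 35.7 and 29.9 CPM in KO and 35.8 and 45.3 CPM in WT. KO replicate 1 and WT replicate 1 differed by only 0.110 CPM, so the order of the groups rests on the other libraries. The log2 fold change was -0.30 and ranged from -0.45 to -0.13 when each library was left out in turn. Irf9 encodes the DNA-binding subunit of ISGF3. It stood at 4.80 and 4.83 CPM in KO and 3.97 and 5.60 CPM in WT, so the KO libraries fell between the WT libraries. The group means were 4.82 ± 0.0164 CPM in KO and 4.79 ± 1.15 CPM in WT (SD, n = 2 each), and the log2 fold change was 0.03. Without KO replicate 2 it was -0.02, without WT replicate 1 it was -0.20 and without WT replicate 2 it was 0.27.

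The regulatory factors differed from each other. Irf1, an activator that is itself induced by interferon gamma, stood at 55.7 and 48.4 CPM in KO and 57.6 and 41.2 CPM in WT, with both KO libraries inside the WT range. Its log2 fold change was 0.08 and turned to -0.14 without WT replicate 2. Irf2, which competes with Irf1 for the same sites, stood at 2.15 and 2.001 CPM in KO and 0.669 and 0.357 CPM in WT. These levels rest on 20 and 23 counts in KO and 7 and 3 counts in WT. The exact 95% counting intervals were 1.31 to 3.31 and 1.27 to 3.004 CPM in KO and 0.269 to 1.38 and 0.0736 to 1.04 CPM in WT. They overlapped between each KO library and WT replicate 1, and neither KO interval reached the interval of WT replicate 2. These intervals cover counting error only, not the spread between libraries. The log2 fold change of Irf2 was 1.96, with 2.51 without WT replicate 1 and 1.62 without WT replicate 2. On the deposited TPM scale, as log2(TPM + 1), which shrinks changes of low genes, it was 0.81. Irf2 lies on chromosome 8 and Irf1 on chromosome 11, where the median footprint log2 fold changes over all tested genes were -0.22 and -0.25. With the median of each chromosome removed, Irf2 was at 2.18 and Irf1 at 0.34.

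Isg15 encodes a ubiquitin-like protein that is conjugated to other proteins and is among the most strongly induced interferon targets. It lies on the minus strand of chromosome 4 (GRCm38, 156199424 to 156200818). Its footprint level was 3.97 and 4.10 CPM in KO and 0.669 and 0.476 CPM in WT, from 37 and 47 counts in KO and 7 and 4 counts in WT. The exact 95% counting intervals were 2.79 to 5.47 and 3.01 to 5.44 CPM in KO. In WT they were 0.269 to 1.38 and 0.130 to 1.22 CPM, and no KO interval met a WT interval. These intervals cover counting error only. Footprint replicates differed beyond it, with a chi-square per degree of freedom of 21.3 for KO and 24.1 for WT. The means were 4.04 ± 0.0952 CPM in KO and 0.572 ± 0.136 CPM in WT (SD, n = 2 each), a ratio of 7.05. The edgeR log2 fold change was 2.78, and it lay between 2.58 and 3.07 when each library was left out in turn. On the log2(TPM + 1) scale it was 2.12. Of the 12315 tested genes, 44 had a log2 fold change at least as large as that of Isg15, itself included. Since Isg15 was chosen with these values in view, nothing is read from this rank.

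The Isg15 promoter is shown because this gene had the highest footprint fold change of the set and the most ISRE matches. The window is that of RefSeq on GRCm38.p6, with 250 bases before the annotated start and 50 bases from it, read on the gene's strand. The ISRE core searched was GAAA, 2 bases of any kind and GAAA again, on both strands, and capitals mark its matches.
Isg15, chr4:156200769-156201068, minus strand: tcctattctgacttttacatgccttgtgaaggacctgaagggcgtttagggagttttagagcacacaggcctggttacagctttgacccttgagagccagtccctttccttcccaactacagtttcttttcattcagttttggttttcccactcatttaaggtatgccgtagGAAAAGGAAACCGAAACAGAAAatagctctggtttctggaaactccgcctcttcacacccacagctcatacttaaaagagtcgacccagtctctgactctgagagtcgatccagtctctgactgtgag
Its 3 matches, GAAAAGGAAA, GAAACCGAAA and GAAACAGAAA, overlap one another by 4 bases and span bases -78 to -57 from the start, which is counted as 0. Over all 32851 RefSeq windows of this length 3.44% held at least 1 match. Of the 9 genes, 6 had a match in a window, namely Isg15, Stat2, Irf2, Bst2, Ifitm2 and Ifitm3, against 3.99% of the 27025 genes with a window. In the pathway list described below, 34 of 95 genes with a window had one. The GAS core, TTC, 3 bases of any kind and GAA, which reads the same on both strands, matched in Irf1, Irf2, Bst2 and Ifitm3, beside 9.55% of genes with a window and 29 of 95 genes of the pathway list. The Irf9 and Ifitm1 windows held neither core. In the GENCODE annotation both genes start before these windows, and those starts were not searched. These genes are named for their response to interferon, so the matches describe the sequences and are not evidence of binding.

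Bst2 encodes tetherin, a membrane protein that holds budding virus particles at the cell surface. It stood at 130 and 113 CPM in KO and 102 and 116 CPM in WT, and the libraries overlapped. Its log2 fold change was 0.17, and 0.39 with the median of chromosome 8 removed. The exact 95% counting intervals of KO replicate 2 (107 to 119 CPM) and WT replicate 2 (109 to 124 CPM) overlapped.

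The Ifitm genes encode small membrane proteins that block the entry of enveloped viruses, and in mouse embryos Ifitm1 and Ifitm3 are known as genes of early germ cells. Ifitm1, Ifitm2 and Ifitm3 lie in 1 cluster on chromosome 7 (GRCm38, 140954837 to 141010770), Ifitm1 on the plus strand and the other 2 on the minus strand. Ifitm1 stood at 246 and 195 CPM in KO and 128 and 115 CPM in WT, a ratio of means of 1.81. Ifitm2 stood at 414 and 411 CPM in KO and 281 and 324 CPM in WT, a ratio of 1.36. Ifitm3 stood at 282 and 287 CPM in KO and 201 and 187 CPM in WT, a ratio of 1.47. In each gene the lower KO library was above the higher WT library, by 66.8 CPM for Ifitm1, 87.4 CPM for Ifitm2 and 80.9 CPM for Ifitm3. The log2 fold changes were 0.86, 0.46 and 0.57 in that order, and stayed between 0.74 and 0.98, between 0.37 and 0.56 and between 0.51 and 0.62 when each library was left out in turn.

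The split of reads among the Ifitm genes is an estimate, because their transcripts share sequence. Of the 28-base stretches in the listed transcripts, 5.02% of Ifitm1, 9.39% of Ifitm2 and 10.8% of Ifitm3 also occurred in another Ifitm gene of the tables. Summed over the 3 genes, which removes the split among them, the level was 941 and 893 CPM in KO and 610 and 626 CPM in WT, with a log2 fold change of 0.58. Within that sum Ifitm1 took 26.1% and 21.8% in KO and 20.99% and 18.4% in WT. Ifitm2 took 44.0% and 46.0% in KO and 46.1% and 51.7% in WT, and Ifitm3 took 29.9% and 32.1% in KO and 32.9% and 29.9% in WT. Both KO shares were above both WT shares for Ifitm1 and below them for Ifitm2, and those of Ifitm3 overlapped. For Ifitm2 the margin was slight, with KO replicate 2 at 46.05% and WT replicate 1 at 46.10%. Ifitm2 also shares 268 exon bases, 40.9% of its exons, with the annotated readthrough gene Gm45717 on the same strand. The other family members were nearly empty. Ifitm10 had 0 counts in all 4 libraries, and Ifitm5, Ifitm6 and Ifitm7 did not pass the filter.

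The promoters of the 3 Ifitm genes are shown because the genes were higher in KO together. Whether promoter sequence has a part in those levels was not tested. Capitals again mark ISRE core matches.
Ifitm1, chr7:140967826-140968125, plus strand: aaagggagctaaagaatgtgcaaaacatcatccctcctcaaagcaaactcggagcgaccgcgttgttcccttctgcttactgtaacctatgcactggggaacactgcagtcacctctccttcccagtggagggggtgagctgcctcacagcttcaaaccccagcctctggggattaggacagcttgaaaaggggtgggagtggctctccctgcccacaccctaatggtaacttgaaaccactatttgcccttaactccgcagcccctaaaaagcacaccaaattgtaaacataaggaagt
Ifitm2, chr7:140955912-140956211, minus strand: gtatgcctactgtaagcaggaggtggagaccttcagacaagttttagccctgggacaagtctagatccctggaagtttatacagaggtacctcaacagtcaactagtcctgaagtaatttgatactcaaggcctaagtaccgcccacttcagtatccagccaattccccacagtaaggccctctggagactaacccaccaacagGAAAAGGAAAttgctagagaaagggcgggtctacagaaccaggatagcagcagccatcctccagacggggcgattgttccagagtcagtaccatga
Ifitm3, chr7:141010695-141010994, minus strand: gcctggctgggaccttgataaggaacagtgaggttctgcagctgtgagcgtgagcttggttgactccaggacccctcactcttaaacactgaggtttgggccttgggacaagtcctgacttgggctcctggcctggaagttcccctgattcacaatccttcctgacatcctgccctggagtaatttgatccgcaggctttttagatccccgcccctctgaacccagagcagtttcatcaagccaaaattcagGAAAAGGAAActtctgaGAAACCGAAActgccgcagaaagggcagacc
Ifitm1 had no match in this window. The window begins at base 140967826, inside the GENCODE gene, which starts at 140967221 on the plus strand. Bases before that earlier start were not searched. Ifitm2 had 1 match, GAAAAGGAAA, at bases -46 to -37. Ifitm3 had 2, GAAAAGGAAA at bases 2 to 11 and GAAACCGAAA at bases 19 to 28, so both begin just after the RefSeq start.

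**Figure D3:**
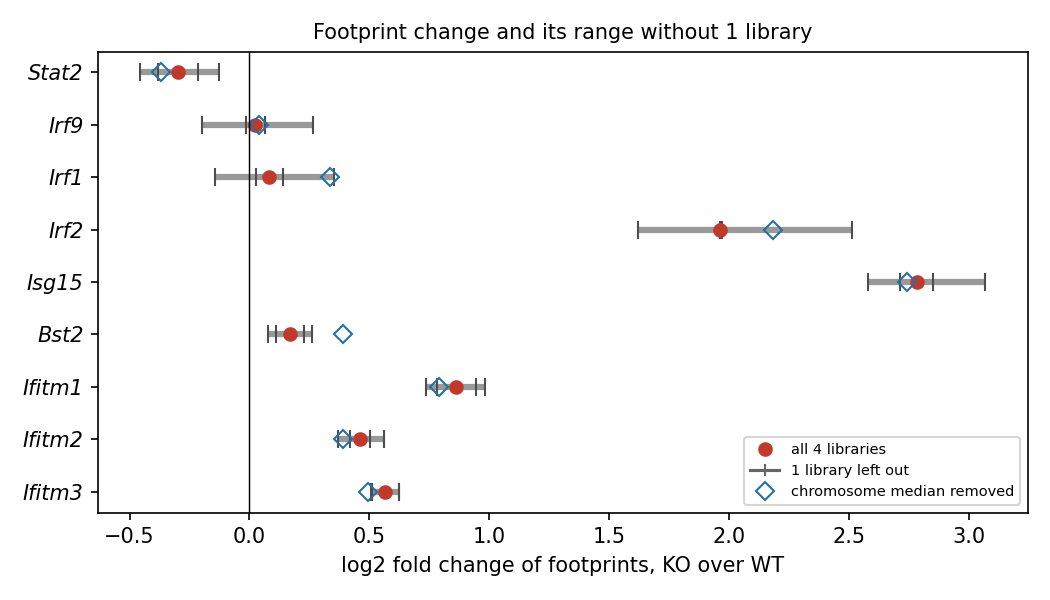
Log2 fold change of footprints, KO over WT, for the 9 genes. Red points use all 4 Ribo-seq libraries, grey bars with ticks span the values with 1 library left out, and blue diamonds have the chromosome median removed. Isg15, Irf2, Bst2 and the 3 Ifitm genes keep positive values throughout, Stat2 keeps negative values, and Irf1 and Irf9 cross 0.

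Per length, on the deposited TPM scale of levels, the 9 genes differed widely in footprints. Ifitm2 was highest, with a mean of 1071 ± 21.5 TPM in KO and 791 ± 91.4 TPM in WT (SD, n = 2 each). Ifitm3, Ifitm1, Bst2, Irf1 and Stat2 followed in that order in both genotypes. In KO the next was Isg15 (8.64 ± 0.417 TPM) and then Irf9 (3.18 ± 0.0849 TPM). In WT these were the other way round, with Irf9 at 3.20 ± 0.926 TPM and Isg15 at 1.23 ± 0.269 TPM. Irf2 was lowest, at 1.32 ± 0.0283 TPM in KO and 0.325 ± 0.134 TPM in WT. No neighbours in either order overlapped in their library values. By rank among all listed genes, the Ifitm genes stood above 97.6% of genes in every footprint library, whereas Isg15 stood at the 72.9th and 73.8th percentile in KO and the 55.6th and 52.7th in WT.

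The RNA-seq tables were not used to choose the genes, and they allow a test for few of them. Of the 9 genes, 2 passed the filter, Isg15 and Irf9, and 0 were called, beside 6.37% of the 2087 genes tested (3.69% higher and 2.68% lower in KO; 0 of the 2 had an unadjusted p below 0.05, and 0 were called by DESeq2). Isg15 had 21.1 and 19.3 counts in KO and 24.9 and 38.4 counts in WT, or 139 and 111 CPM in KO and 118 and 175 CPM in WT. The genotypes overlapped, and the log2 fold change was -0.33 (SE 0.40, 95% interval -1.21 to 0.55, edgeR adjusted p = 0.711). The Isg15 footprint log2 fold change was 2.78. The difference between the assays was not tested, because the footprint value chose the gene. Irf9 had 10.7 and 22.0 counts in KO and 19.8 and 14.3 counts in WT, and its log2 fold change was 0.25 (SE 0.50, 95% interval -0.85 to 1.35, edgeR adjusted p = 0.820). A 2-fold rise is inside the Irf9 interval, and a 2-fold fall is inside the Isg15 interval.

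The other 7 genes had at most 5 counts in any RNA-seq library. Stat2 had 0 and 1 counts in KO and 5 and 3 counts in WT, and Irf1 had 0 and 0 counts in KO and 3 and 2 counts in WT. Ifitm1 was at 0 in all 4 RNA-seq libraries although it had at least 969 counts in every footprint library. Ifitm2 had 1.44 and 3.76 counts in KO and 2 and 3.76 counts in WT. Per length, on the deposited TPM scale, Isg15 had the highest RNA-seq level of the 9 genes in all 4 libraries, at 497 and 426 TPM in KO and 409.5 and 622 TPM in WT, whereas in footprints it ranked the seventh in KO and the eighth in WT. The Isg15 transcript shared at least one 28-base stretch with 97 other listed genes and the Irf9 transcripts with 460, on either strand. What part reads from those genes have in the RNA-seq values was not tested. Those stretches made up 3.02% of Isg15 on the same strand and 3.29% on the opposite strand, and 4.49% and 1.55% of Irf9. Irf9 also shares 123 exon bases with Rnf31 on the same strand, and no source used here gives the strand setting of the counting.

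The rest of the interferon pathway was followed in footprints in a list of 127 genes by role, of which 126 were in the tables and 63 passed the filter. Of these 63, 0 rose and 2 fell, Zc3hav1 and Parp12, which is 3.17% of the list beside 2.44% of all 12315 genes (301 called, 1.83% higher and 0.617% lower in KO). Over the list, 25 log2 fold changes were positive and 38 negative, with a median of -0.11 beside 0.01 over all genes. At an unadjusted p below 0.05 there were 2 higher and 7 lower of the 63, beside 10.7% higher and 8.72% lower of all genes. Thus 0 of the 63 other pathway genes that could be tested were called higher in KO in edgeR, and DESeq2 also called 0 higher and the same 2 genes lower. Without the filter on low counts 1 of 98 was called higher and 3 lower, beside 706 higher and 404 lower of all 17328 genes. The 1 called higher was the sensor Ifih1, with 7 and 17 counts in KO and 1 and 2 counts in WT. Ifih1 did not pass the filter and is named after its values were seen. With the replicate number of the labels as a block, 5 of 63 were called higher and 7 lower. In that fit 1566 of all 12315 genes were called higher and 1394 lower, so the list counts are not read as a response of the pathway.

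Zc3hav1, the antiviral protein ZAP that binds CpG-rich RNA, fell to 25.3 and 29.9 CPM in KO, against 72.5 and 72.0 CPM in WT. Its log2 fold change was -1.37 (SE 0.18, edgeR adjusted p = 0.0108). Parp12, a mono-ADP-ribosyltransferase induced by interferon, fell to 11.04 and 10.6 CPM in KO, against 25.7 and 23.6 CPM in WT. Its log2 fold change was -1.17 (SE 0.19, edgeR adjusted p = 0.0209). Both genes lie on the minus strand of chromosome 6, Zc3hav1 from 38305286 to 38354603 and Parp12 from 39086410 to 39118349 (GRCm38). The median log2 fold change over 536 tested genes of that chromosome was -0.38. With chromosome medians removed Zc3hav1 kept its call and Parp12 did not (log2 fold change -0.79, adjusted p = 0.0859). Parp12 also lost its call without KO replicate 1 (log2 fold change -1.15, adjusted p = 0.0806) and without KO replicate 2 (log2 fold change -1.19, adjusted p = 0.0624).

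Of the 20 interferon genes in the list, 18 had 0 counts in all 4 footprint libraries, which allows levels up to 0.261 to 0.357 CPM a library. Ifnl2 and Ifnl3 shared a single count in KO replicate 1. Of the 10 genes listed with the receptors and kinases, 9 were tested and 0 called. Ifnar1, the type I receptor chain, stood at 23.7 and 28.01 CPM in KO and 25.5 and 24.4 CPM in WT (log2 fold change 0.07, SE 0.19, adjusted p = 0.882). Jak1, the kinase shared by the interferon receptors, stood at 47.5 and 35.5 CPM in KO and 43.3 and 48.3 CPM in WT (log2 fold change -0.14, SE 0.19, adjusted p = 0.751). Of the 6 other regulatory factors 3 were tested and 0 called. Irf3, activated by viral nucleic acid sensing, stood at 38.5 and 22.4 CPM in KO and 38.1 and 24.4 CPM in WT. Irf7, the amplifier of the type I response, had 0 counts in all 4 libraries and was chosen after its values were seen.

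Of the 7 negative regulators 6 were tested and 0 called. Socs3, a feedback inhibitor of JAK kinases, stood at 103 and 75.0 CPM in KO and 95.2 and 103 CPM in WT. Ptpn2, a phosphatase of JAK1, stood at 40.8 and 52.1 CPM in KO and 49.6 and 58.4 CPM in WT. Their log2 fold changes were -0.15 and -0.19, and both genotypes overlapped. With chromosome medians removed Socs3, on chromosome 11, was at 0.10. Of the 15 nucleic acid sensors and adaptors 12 were tested, 0 were called, and 5 were positive and 7 negative (median -0.27). Trim25, the ubiquitin ligase that acts with the sensor RIG-I, stood at 129 and 119 CPM in KO and 158 and 137 CPM in WT (log2 fold change -0.24, SE 0.15, adjusted p = 0.429). Trim25 is also on chromosome 11, and with chromosome medians removed its log2 fold change was 0.01. Mavs, the mitochondrial adaptor of RIG-I, stood at 27.7 and 24.5 CPM in KO and 24.7 and 24.9 CPM in WT (log2 fold change 0.08).

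Of the 3 enzymes that attach ISG15, all at low levels, 2 were tested and 0 called. Ube2l6, its conjugating enzyme, stood at 2.68 and 3.17 CPM in KO and 3.26 and 4.76 CPM in WT (log2 fold change -0.43, SE 0.34, adjusted p = 0.549). Herc6, its ligase in mouse, stood at 0.322 and 0.783 CPM in KO and 1.05 and 1.43 CPM in WT (log2 fold change -1.07, SE 0.59, adjusted p = 0.370). Neither difference passed the test. Uba7, the activating enzyme, had 3 and 1 counts in KO and 0 and 0 counts in WT and was not tested; it is named after its values were seen.

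Of 49 further type I effectors with an entry, 27 were tested, with 9 positive and 18 negative values (median -0.11), and Zc3hav1 and Parp12 were the 2 called. Ly6e, a membrane protein that restricts coronaviruses, stood at 84.4 and 95.1 CPM in KO and 68.4 and 75.6 CPM in WT (log2 fold change 0.34, SE 0.16, adjusted p = 0.310). Pml, the organizer of nuclear bodies, stood at 106 and 70.2 CPM in KO and 94.6 and 64.5 CPM in WT (log2 fold change 0.15). Of 12 type II effectors 4 were tested and 0 called. Igtp, an immunity-related GTPase, stood at 12.03 and 11.9 CPM in KO and 7.45 and 9.20 CPM in WT (log2 fold change 0.54, SE 0.23, adjusted p = 0.238). Irgm1, of the same family, stood at 7.37 and 9.69 CPM in KO and 14.5 and 7.69 CPM in WT (log2 fold change -0.37, and 0.17 without WT replicate 1). With the replicate block Ly6e (adjusted p = 0.0244) and Igtp (adjusted p = 0.0407) were called. In RNA-seq, 12 genes of the list passed the filter, 0 were called by edgeR or DESeq2, and 4 had an unadjusted edgeR p below 0.05, beside 23.1% of all genes tested.

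**Figure D4:**
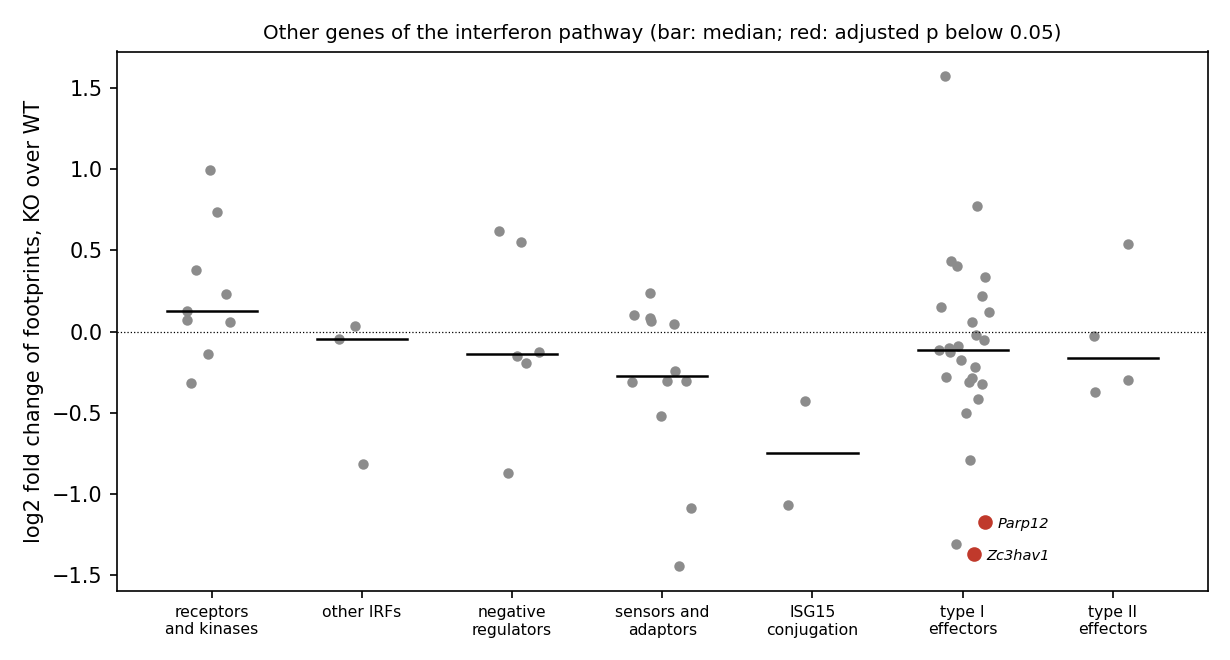
Log2 fold change of footprints, KO over WT, for the 63 tested pathway genes outside the set, by role. Points are genes, bars are medians of each role, and the 2 red points, Zc3hav1 and Parp12, are the genes with an adjusted p below 0.05. Of the 63 points, 45 lie between -0.5 and 0.5.

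Genes near the 9 were compared in a window of 100 kb on each side, a choice made after the data were seen. Near Isg15, 3 other genes were tested. Agrn, which encodes the heparan sulfate proteoglycan agrin and lies 1936 bases from Isg15 on the same strand, rose to 217 and 199 CPM in KO, against 102 and 96.5 CPM in WT (log2 fold change 1.08, SE 0.14, edgeR adjusted p = 0.0108). The other 2, Noc2l and 9430015G10Rik, had log2 fold changes of 0.11 and 0.26 and did not pass. Near Irf9, Pck2, the mitochondrial phosphoenolpyruvate carboxykinase, was 1 of 15 called, at 123 and 128 CPM in KO and 64.3 and 68.6 CPM in WT (log2 fold change 0.93, adjusted p = 0.0201). It lost the call without KO replicate 2 (adjusted p = 0.0628). Around Stat2, Irf1 and Bst2, 0 of 11, 0 of 2 and 0 of 10 neighbours were called. Around each Ifitm gene, 0 of 5 neighbours outside the set were called, with the smallest adjusted p at 0.187. No neighbour of Irf2 was tested.

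Likeness to Isg15 was measured over 9254 genes whose counts averaged 50 or more. Those whose centred log2(CPM + 0.5) profile over the 4 footprint libraries was most like that of Isg15 were Tenm4, Krt8, Krt18, Car2 and Sema6a. Their root mean square differences from Isg15 were 0.0810, 0.0961, 0.126, 0.146 and 0.163 on the log2 scale. With 4 libraries this likeness is mainly the distance between the genotypes. The added 0.5 CPM is near the WT mean of Isg15 (0.572 CPM) and shrinks its distance more than that of higher genes. The 5 genes had edgeR log2 fold changes of 1.86 to 2.25, beside 2.78 for Isg15. Isg15 itself, at 4 to 47 counts a library, was below the limit of 50. Tenm4, a teneurin membrane protein, stood at 31.9 and 29.3 CPM in KO and 8.12 and 6.78 CPM in WT. Krt8, a simple epithelial keratin, stood at 121 and 143 CPM in KO and 34.9 and 31.4 CPM in WT. Neither these 2 nor the other 3 belong to the interferon list.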

How the data were processed

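The series holds 8 libraries of METTL5 KO and WT mESC, 2 per genotype in each of 2 assays. Bowtie2 2.3.4.3, mm10 and RSEM appear in the submitters' processing notes; no source used here gives a strand setting. Each deposited table has, per the file headers, expected counts per gene, in which RSEM divides shared reads among genes, with deposited TPM values, used for levels between genes, and deposited FPKM values, which were not used. CPM were computed from expected counts over the library total.

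Expected counts were rounded and fitted separately by assay in edgeR 4.0.16, using its quasi-likelihood test (robust, TMM factors, filterByExpr), with Benjamini-Hochberg adjustment over all tested genes and a threshold of 0.05. Standard errors come from the F statistics. The fit was tested on simulated counts from independent libraries with a fixed spread for all genes. That test does not cover the replicate differences of the real libraries. An exact permutation test of 2 against 2 libraries cannot go below p = 0.333 and was not used. Replicates differed beyond sampling noise, with a chi-square per degree of freedom of 21.3 for KO and 24.1 for WT Ribo-seq and 2.96 for KO and 7.02 for WT RNA-seq. The series calls the replicates biological, and nothing says they came from separate clones, so p-values cover only library-to-library spread, which may be technical.

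The 9 genes and the lists were chosen with earlier results of these data known. Named pathway genes were those called (up to 20) and the 2 tested genes with the highest mean CPM in each role, of which 1 is not reported here. Guanylate-binding protein and class I antigen presentation genes were left out of the list. Positions and exons came from GENCODE M21 on GRCm38, promoters from RefSeq on GRCm38.p6, where all 9 genes matched, and chromosomes from the RefSeq table of that assembly. Alternatives were DESeq2 1.42.0, RLE factors, other filters, a replicate block, leaving out each library, Rn45s left out of totals, log2(TPM + 1), chromosome medians removed and the Ifitm genes summed.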

Additional observations from a re-analysis of the deposited data

How the results depend on the processing

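Of 90 recomputed footprint log2 fold changes of the 9 genes, 76 moved by no more than the spread between replicates (1 SD). With 2 libraries per group, leaving 1 out tends to stay within that spread by construction, so the 76 are not read as robustness. All alternatives kept the sign for 7 of the genes. Irf1 changed sign without WT replicate 2, and Irf9 without KO replicate 2 or WT replicate 1. The count of these genes with both KO libraries above both WT libraries was 5, an order shown by 24.3% of all genes tested. It was 5 on the TPM scale and 6 with Rn45s left out of totals. With 1 library left out it was 5 to 7, but fewer libraries then have to differ. The share of all genes was not computed for these alternatives. Since the genes were chosen on this comparison, nothing is read from these counts. In Ribo-seq the 301 genes called over all genes became 1110 with no filter on low counts, 186 with a mean count of at least 50 and 2960 with the replicate block, and ranged from 189 (without KO replicate 2) to 761 (without WT replicate 1), with 505 without WT replicate 2. The 2 called genes of the pathway list became 4 with no filter, 12 with the replicate block and 1 with chromosome medians removed, and ranged from 1 (without either KO library) to 5 (without WT replicate 1). In RNA-seq the 133 called genes became 76 with a mean count of at least 50, 53 with DESeq2 and 155 with the replicate block, and ranged from 73 (without KO replicate 1) to 242 (without WT replicate 1). Some genes named as not called changed sign. With chromosome medians removed Ifnar1 was at -0.0018, Socs3 at 0.10 and Trim25 at 0.014. With each library left out in turn, footprint log2 fold changes ranged from -0.10 to 0.23 for Ifnar1, -0.31 to 0.022 for Jak1, -0.43 to 0.32 for Irf3, -0.34 to 0.022 for Socs3, -0.43 to 0.0091 for Ptpn2, -0.12 to 0.46 for Pml and -0.75 to 0.17 for Irgm1, and the RNA-seq value of Irf9 from -0.26 to 0.63. The cause of these changes was not tested, apart from the fewer genes or libraries that a filter or an omission leaves. Same-numbered footprint libraries deviated together from their group means (correlation 0.57 over 9254 genes; 0.07 over 463 genes in RNA-seq), and they share a tag in their deposited names, which no label explains. With 2 pairs and no stated meaning of the tag, the block was kept as an alternative. Of the 9 genes, 7 had at most 5 counts in any RNA-seq library, where 3 counts were 13.7 to 19.7 CPM. Little can be said of these 7 in RNA-seq. Why Ifitm1, with at least 969 counts in every footprint library, had 0 RNA-seq counts was not tested.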
